A study of Mus musculus with 2 samples.

Results

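Notch signalling in the injured lung is described here through 10 genes of the pathway: the ligand genes Dll4, Jag1 and Jag2, the receptor genes Notch1, Notch3 and Notch4, and the target genes Hey1, Heyl, Hes1 and Nrarp. They were taken by symbol from the 31053 genes of the count matrices, and the choice was made with earlier results of these data known. The data come from 2 droplet single-cell RNA libraries of C57BL/6 mouse lung labelled with acute lung injury, 1 from a p47phox-KI source and 1 from a wild-type (WT) source. Tissue was perfused and dissociated in collagenase, and after red cell lysis the suspension was stained for viability and for CD45.2, a leukocyte marker, then sorted and captured with the 10x Chromium V3 kit, which tags transcripts near their 3' end. p47phox is encoded by Ncf1 and organises the phagocyte NADPH oxidase. How the gene was modified, the agent of injury, the gate of the sort and the number of animals, their age and their sex are not given in the sources used here, so the p47phox-KI library is named by its label alone. With 1 library in each group there is no replicate check: no test, standard error or p-value can be given, and every interval below covers counting error only.

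In Notch signalling a membrane-bound ligand on a cell activates a receptor on its neighbour, the receptor is cleaved, and its intracellular domain joins the DNA-binding protein RBPJ to switch on target genes. In blood vessels Dll4 is the ligand of arteries and sprouting tip cells, Notch1 and Notch4 are the endothelial receptors, and Notch3 is the receptor of pericytes and smooth muscle, where Jag1 is a main ligand. Hey1, Heyl and Hes1 encode transcriptional repressors of the Hes/Hey family, and Nrarp encodes a small protein that is itself induced by Notch and dampens the signal.

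The p47phox-KI library held 9120 barcodes and 43445797 UMIs (unique molecular identifiers, each standing for 1 captured transcript), and the WT library 10473 barcodes and 43376713 UMIs. After filtering, 6636 p47phox-KI and 7735 WT cells remained, with medians of 3774.5 and 3307 UMIs per cell. Of the barcodes, 30 occurred in both libraries and were treated as separate cells. A haemoglobin UMI was found in 17.2% of p47phox-KI and 1.62% of WT barcodes, and its part in the results below was not tested. Leaving haemoglobin, mitochondrial and ribosomal protein genes out of the totals gave 25 ratios above 0.5 and 7 below -0.5, the same counts as those given below. That setting changes only the totals, so it cannot show whether the haemoglobin difference bears on the 10 genes. Cell types were rebuilt from marker genes and carry the suffix -like. Of the kept cells, 6118 in p47phox-KI and 7334 in WT fell into the types used below, and 12 types held at least 50 cells in each library. All markers of those 12 types were detected in both libraries, except for 1 of 12 smooth muscle markers in p47phox-KI and 1 of 8 activated capillary markers in WT. General capillary-like cells held the highest level of any type for only 2 of their 12 markers in each library, against 10 of 12 for aerocyte-like and for pericyte-like cells. The activated capillary-like label was also weak. Those cells held the highest level for 4 of their 8 markers in p47phox-KI and 3 in WT, and scored highest for the general capillary list.

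Levels are given as CPM, a gene's UMIs per 1000000 UMIs of the same cell type and library, so a difference between libraries is a difference in the share of the captured RNA. Ratios are log2 of p47phox-KI over WT, given with a 95% counting interval in brackets wherever the libraries together held at least 20 UMIs of the gene. A ratio is counted when it lies above 0.5 or below -0.5, while higher and lower in the text give the direction alone. Outside the alternative settings, each such count is set beside the share of measured genes that passed the same size in the same cells. Over the 12 cell types 82 ratios of the 10 genes could be measured, of which 25 were above 0.5, where 16.7% of the ratios of measured genes were, and 7 were below -0.5, where 9.85% were.

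Promoter sequences are shown for the ligand gene whose level differed most widely between the libraries and for the target gene that the sequence table held. RefSeq promoters on GRCm38.p6, each 250 bases before to 50 after a start site, were found for 7 of the 10 genes (Dll4, Jag1, Jag2, Notch1, Notch3, Notch4 and Nrarp). Capitals mark the motifs that were found, CACGCG in Dll4 and CACGTG in Nrarp, which are of the kinds known to be bound by Hes/Hey repressors. Both windows lie on the plus strand of chromosome 2, Dll4 at chr2:119325534-119325833 and Nrarp at chr2:25180508-25180807.
Dll4: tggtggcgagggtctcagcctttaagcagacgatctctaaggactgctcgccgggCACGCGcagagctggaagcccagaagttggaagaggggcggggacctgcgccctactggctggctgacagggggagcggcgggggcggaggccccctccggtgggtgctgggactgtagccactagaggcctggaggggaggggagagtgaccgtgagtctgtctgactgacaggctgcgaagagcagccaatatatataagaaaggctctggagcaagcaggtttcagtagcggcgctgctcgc
Nrarp: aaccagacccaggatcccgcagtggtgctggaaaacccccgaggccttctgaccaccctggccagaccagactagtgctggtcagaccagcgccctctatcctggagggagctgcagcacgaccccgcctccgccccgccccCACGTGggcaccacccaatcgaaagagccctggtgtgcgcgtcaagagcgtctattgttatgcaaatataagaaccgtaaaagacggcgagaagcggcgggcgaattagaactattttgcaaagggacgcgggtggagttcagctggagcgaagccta
The CACGCG of the Dll4 window begins 195 bases before the start site, and the CACGTG of the Nrarp window begins 108 bases before it. Searched on both strands, CACGCG was in 9.27% of 32851 mouse promoter windows and also in those of Jag1 and Jag2, and CACGTG was in 7.15%. The RBPJ-type motifs GTGGGAA and GTGAGAA, in 6.38% and 4.59% of windows, were in 0 of the 7.

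Dll4, on chromosome 2 (119325784 to 119335962, plus strand, GRCm38), was the ligand gene with the clearest difference. It was higher in the p47phox-KI library in each of the 5 endothelial types, and the difference was larger than the counting error in each. Arterial-like cells held 267 CPM in p47phox-KI (163 UMIs in 140 cells) and 88.4 CPM in WT (84 UMIs in 228 cells), a log2 ratio of 1.59 [1.21, 1.99]. Activated capillary-like cells, named for Inhbb and Tmem252, held 146 CPM in p47phox-KI and 65.0 CPM in WT, a ratio of 1.17 [0.74, 1.60]. General capillary-like cells, the capillary endothelium that can renew itself, held 114 CPM in p47phox-KI and 55.0 CPM in WT, a ratio of 1.06 [0.87, 1.25]. The difference was present both in capillary types and in arterial-like cells. Aerocyte-like cells, the large capillary cells specialised for gas exchange, held 99.8 CPM in p47phox-KI and 68.3 CPM in WT, a ratio of 0.55 [0.37, 0.72], which was 0.43 when cells were weighted equally. Venous-like cells had the lowest endothelial levels, 52.1 CPM in p47phox-KI (66 UMIs) and 27.5 CPM in WT (26 UMIs), a ratio of 0.92 [0.25, 1.63], which was 0.29 with a stricter cell filter. Smooth muscle markers summed to 329 CPM in p47phox-KI and 114 CPM in WT in these venous-like cells, and their part in the venous-like values was not tested. Over all endothelial-like cells there were 1721 Dll4 UMIs in p47phox-KI and 1014 in WT (111 and 61.5 CPM), a ratio of 0.85 [0.73, 0.96].

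In p47phox-KI the Dll4 level of arterial-like cells stood clear of that of the next type, whereas in WT the counting intervals of arterial-like, aerocyte-like, activated capillary-like and general capillary-like cells followed on without a gap until venous-like cells. The share of cells with a Dll4 UMI differed in the same direction. It was 58.6% [49.9, 66.8] of p47phox-KI and 28.1% [22.3, 34.4] of WT arterial-like cells, whose median depths were 3945.5 and 3877.5 UMIs, and 36.2% and 17.3% of general capillary-like cells at 4155 and 3696 UMIs. Cells of at least 2000 UMIs were also thinned to 2000 UMIs, with shallower cells left out. The thinned shares were 35.7% in p47phox-KI and 16.2% in WT arterial-like cells, and 19.4% and 10.9% in general capillary-like cells. In pericyte-like cells, which should lack the gene, 1.59% of p47phox-KI and 0 of 355 WT cells had a Dll4 UMI at median depths of 2709.5 and 2154 UMIs. Smooth muscle-like cells held 0 Dll4 UMIs in both libraries, where 3 UMIs would give 5.12 CPM in p47phox-KI and 6.11 CPM in WT. Endothelial-like cells held 87.3% of the Dll4 UMIs of kept p47phox-KI cells and 88.9% of those of WT cells.

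**Figure D1:**
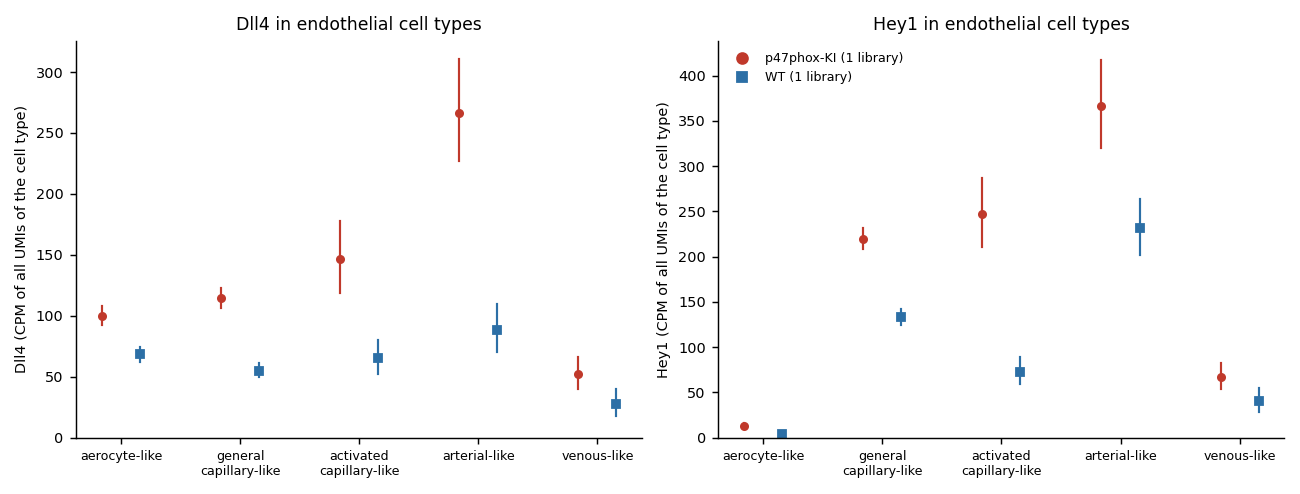
Level of Dll4 (left) and Hey1 (right) in 5 endothelial cell types, in CPM on a linear axis from 0; red circles are the p47phox-KI library, blue squares the WT library, and bars are exact Poisson 95% counting intervals. Each p47phox-KI point lies above its WT point, with the widest gap for Dll4 in arterial-like cells (267 and 88.4 CPM) and for Hey1 in activated capillary-like cells (247 and 73.1 CPM).

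Within general capillary-like cells the Dll4 difference was uneven. The 3 clusters of this type held 159, 105 and 76.1 CPM in p47phox-KI and 75.5, 39.9 and 64.3 CPM in WT. The cluster with the smallest difference was led by Cxcl10, Hspa1a and Atf3, genes of the interferon, heat-shock and early stress responses. A list of 10 immediate-early and heat-shock genes, which holds Hspa1a and Atf3, was itself higher in p47phox-KI in the endothelial types: 9 or 10 of its 10 genes were higher in each, and its summed level was 7479 CPM in p47phox-KI and 5402 CPM in WT in general capillary-like cells and 3545 and 2361 CPM in arterial-like cells. Its part in the Dll4 difference was not tested.

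Jag1 (chromosome 2, 137081456 to 137116644, minus strand), the ligand that vessel walls share with many epithelia, differed less. In general capillary-like cells it held 78.0 CPM in p47phox-KI and 62.9 CPM in WT, a ratio of 0.31 [0.12, 0.50]. Pericyte-like cells held 82.5 CPM in p47phox-KI and 61.0 CPM in WT, a ratio of 0.44 [-0.08, 0.97] whose interval includes 0. In activated capillary-like, arterial-like and venous-like cells the ratios were 0.06, 0.05 and 0.04, and none of the 10 ratios measured for Jag1 passed 0.5. What set Jag1 apart was its place within the capillary bed: aerocyte-like cells held only 9.43 CPM in p47phox-KI and 8.74 CPM in WT, far below general capillary-like cells of the same library. Dll4 and Jag2 had no gap of that size between those capillary types.

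Jag2 (chromosome 12, 112907819 to 112929776, minus strand), a ligand with endothelial and airway expression, was mostly endothelial, with 81.3% of its UMIs in endothelial-like cells in p47phox-KI and 83.3% in WT. General capillary-like cells held 85.6 CPM in p47phox-KI and 62.3 CPM in WT, a ratio of 0.46 [0.27, 0.65]. Activated capillary-like cells held 51.7 CPM (35 UMIs) in p47phox-KI and 31.8 CPM (43 UMIs) in WT, a ratio of 0.70 [0.02, 1.38], which was 0.12 with a stricter cell filter. In aerocyte-like cells the ratio was -0.14 [-0.34, 0.05], with 60.7 CPM in p47phox-KI and 67.0 CPM in WT.

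The receptor Notch1 (chromosome 2, 26457903 to 26516663, minus strand) was nearly level in the large capillary populations. General capillary-like cells held 401 CPM in p47phox-KI and 387 CPM in WT, a ratio of 0.05 [-0.03, 0.13]. Aerocyte-like cells held 277 CPM in p47phox-KI and 281 CPM in WT, a ratio of -0.02 [-0.11, 0.07]. Both intervals include 0. Arterial-like cells held the highest level, 645 CPM in p47phox-KI and 478 CPM in WT, a ratio of 0.43 [0.23, 0.63]. In activated capillary-like cells the ratio was 0.35 [0.16, 0.55], and in venous-like cells it was -0.30 [-0.54, -0.05], with 227 CPM in p47phox-KI and 279 CPM in WT.

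Notch4 (chromosome 17, 34564268 to 34588503, plus strand), a receptor known from endothelium, had 83.3% of its UMIs in endothelial-like cells in p47phox-KI and 84.4% in WT. Venous-like cells held 159 CPM in p47phox-KI and 98.4 CPM in WT, a ratio of 0.69 [0.33, 1.06]. Arterial-like cells held 275 CPM in p47phox-KI and 196 CPM in WT, a ratio of 0.49 [0.18, 0.80], which became -0.16 with a stricter cell filter. General capillary-like cells held 251 CPM in p47phox-KI and 213 CPM in WT, a ratio of 0.24 [0.14, 0.35]. Of the 5 endothelial types, Notch4 passed 0.5 in venous-like cells only. Pericyte-like cells held 100 CPM in p47phox-KI and 84.7 CPM in WT, with intervals that overlap those of aerocyte-like cells (103 and 99.4 CPM).

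Notch3 (chromosome 17, 32120820 to 32166852, minus strand) was a mural gene: pericyte-like and smooth muscle-like cells held 75.8% of its UMIs in p47phox-KI and 75.7% in WT. It was lower in p47phox-KI pericyte-like cells, with 685 CPM (730 UMIs in 378 cells), against 903 CPM in WT (725 UMIs in 355 cells), a ratio of -0.40 [-0.55, -0.25]. The 4 clusters of pericyte-like cells held 748, 648, 713 and 508 CPM in p47phox-KI and 976, 762, 1022 and 897 CPM in WT. Each of those clusters was lower in p47phox-KI. Smooth muscle-like cells held 478 CPM in p47phox-KI and 532 CPM in WT, a ratio of -0.16 [-0.40, 0.09]. A Notch3 UMI was found in 77.5% of p47phox-KI and 80.6% of WT pericyte-like cells, whose median depths were 2709.5 and 2154 UMIs, and in 0.334% and 0.435% of aerocyte-like cells at 3196 and 3065.5 UMIs. Notch3 in endothelial-like cells is read as background, and the ratio of -0.67 [-2.06, 0.64] in general capillary-like cells rests on 9 UMIs in p47phox-KI and 14 in WT. A gene annotated on the opposite strand, Gm17276, overlaps Notch3 and is counted separately in the matrices.

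The target gene Hey1 (chromosome 3, 8663359 to 8667256, minus strand) was, like Dll4, higher in p47phox-KI in each of the 5 endothelial types, although outside a shallow cluster the aerocyte-like level was at background. In arterial-like cells, where Hey1 is a classical marker of identity, it held 367 CPM in p47phox-KI (224 UMIs) and 231 CPM in WT (220 UMIs), a ratio of 0.66 [0.39, 0.94], which was 0.42 at clustering resolution 0.5. In general capillary-like cells it held 220 CPM in p47phox-KI (1414 UMIs) and 133 CPM in WT (839 UMIs), a ratio of 0.72 [0.60, 0.85]. In the order used for Dll4, the clusters of this type held 300, 223 and 110 CPM of Hey1 in p47phox-KI and 166, 125 and 97.0 CPM in WT. As for Dll4, the difference was smallest in the cluster led by Cxcl10 and Hspa1a. Activated capillary-like cells held 247 CPM in p47phox-KI and 73.1 CPM in WT, a ratio of 1.75 [1.39, 2.13]. The counting intervals of the levels did not overlap between the libraries in any of these types. Venous-like cells held 67.0 CPM in p47phox-KI and 40.2 CPM in WT, a ratio of 0.74 [0.17, 1.33], which was 0.43 with a stricter cell filter. Aerocyte-like cells held 13.4 CPM in p47phox-KI and 4.22 CPM in WT, 27.4 and 54.8 times below arterial-like cells of the same library, and 56 of their 88 p47phox-KI and 15 of their 29 WT UMIs lay in a shallow cluster of 250 and 149 cells with 165 and 80.8 CPM. That cluster scored 1.10 for the aerocyte markers, where the other aerocyte-like clusters scored 2.39 to 2.64. It also held 76.7 CPM of Nrarp in p47phox-KI and 70.1 CPM in WT. In the other aerocyte-like clusters Nrarp was at 3.02 to 8.96 CPM in p47phox-KI and 5.93 to 8.58 CPM in WT. Its aerocyte-like name is therefore uncertain. Without that cluster the aerocyte-like Hey1 levels were 5.13 CPM in p47phox-KI and 2.10 CPM in WT. Among aerocyte-like cells deep enough to thin to 2000 UMIs, 1.63% in p47phox-KI and 0.760% in WT had a Hey1 UMI, close to the 1.82% and 0.750% of alveolar fibroblast-like cells, a type that should lack the gene, and the level in these deeper cells is read as background.

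A Hey1 UMI was found in 71.4% [63.2, 78.7] of p47phox-KI arterial-like cells, against 114 of 228 WT cells, a share with an interval of 43.3% to 56.7%. In general capillary-like cells the shares were 50.1% in p47phox-KI and 32.1% in WT. Thinned to 2000 UMIs per cell it was 47.6% [38.7, 56.7] in p47phox-KI and 34.8% [28.2, 41.9] in WT arterial-like cells, where the intervals overlap, and 35.5% [32.8, 38.3] and 20.4% [18.2, 22.7] in general capillary-like cells, where they do not. In pericyte-like cells, a type that should lack the gene, the unthinned share was 1.06% in p47phox-KI and 0.282% in WT. Among thinned general capillary-like cells of p47phox-KI, a Hey1 UMI was found in 44.3% of the 228 cells with a Dll4 UMI and in 33.4% of the 949 cells without one; in WT these shares were 27.3% of 139 and 19.6% of 1135 cells. In arterial-like cells the order was the other way in both libraries, with 42.2% and 50.6% in p47phox-KI and 31.2% and 35.5% in WT.

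Hes1 (chromosome 16, 30064384 to 30067796, plus strand), which answers to several pathways beside Notch, did not follow Hey1 in endothelium. General capillary-like cells held 170 CPM in p47phox-KI and 223 CPM in WT, a ratio of -0.39 [-0.51, -0.28]. Aerocyte-like cells held 124 CPM in p47phox-KI and 138 CPM in WT, a ratio of -0.16 [-0.30, -0.03]. Venous-like cells went the other way, with 222 CPM in p47phox-KI and 163 CPM in WT, a ratio of 0.44 [0.16, 0.74], which became -0.59 with a stricter cell filter and -0.43 at clustering resolution 0.5. In the general capillary-like cluster led by Cxcl10 and Hspa1a, Hes1 reached 342 CPM in p47phox-KI and 564 CPM in WT, against 108 to 127 CPM and 152 to 156 CPM in the other clusters of the type.

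Nrarp (chromosome 2, 25180758 to 25183339, plus strand) had ratios near 0 in general capillary-like and arterial-like cells. General capillary-like cells held 105 CPM in p47phox-KI and 113 CPM in WT, a ratio of -0.11 [-0.27, 0.04], and arterial-like cells held 119 and 115 CPM, a ratio of 0.06 [-0.39, 0.50]. Activated capillary-like cells held 90.1 CPM (61 UMIs) in p47phox-KI and 56.9 CPM (77 UMIs) in WT, a ratio of 0.66 [0.16, 1.17], which was 0.41 when the pathway genes were kept among the clustered genes. Venous-like cells held 88.3 CPM in p47phox-KI (112 UMIs) and 111 CPM in WT (105 UMIs), a ratio of -0.33 [-0.73, 0.07]. Aerocyte-like cells had little Nrarp, with 10.0 CPM in p47phox-KI and 9.61 CPM in WT. Jag1, Hey1 and Nrarp thus shared a low level in aerocyte-like beside general capillary-like cells in both libraries. A gene on the opposite strand, Gm38287, overlaps Nrarp and is counted separately in the matrices.

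Dll4 and Hey1 were the genes above 0.5 in each of the 5 endothelial types, although aerocyte-like Hey1 is read as background outside a shallow cluster. In aerocyte-like cells 2 of 8 measured genes were above 0.5, Dll4 and Hey1, and 0 were below -0.5, where 10.2% and 7.61% of measured genes were. General capillary-like cells had Dll4 and Hey1 above and Notch3 below, of 9 measured, where the shares were 13% and 6.91%. Activated capillary-like cells had 4 of 8 above (Dll4, Jag2, Hey1 and Nrarp) and 0 below, where the shares were 17.2% and 11.5%. Arterial-like cells had Dll4 and Hey1 above and 0 below of 8, where the shares were 18.1% and 12.1%. Venous-like cells had Dll4, Notch4 and Hey1 above and 0 below of 8, where the shares were 16.5% and 11%. Over all endothelial-like cells Dll4 and Hey1 were above and Heyl, with 9 UMIs in p47phox-KI and 15 in WT, was below, of 10 measured, where the shares were 10.9% and 6.82%.

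**Figure D2:**
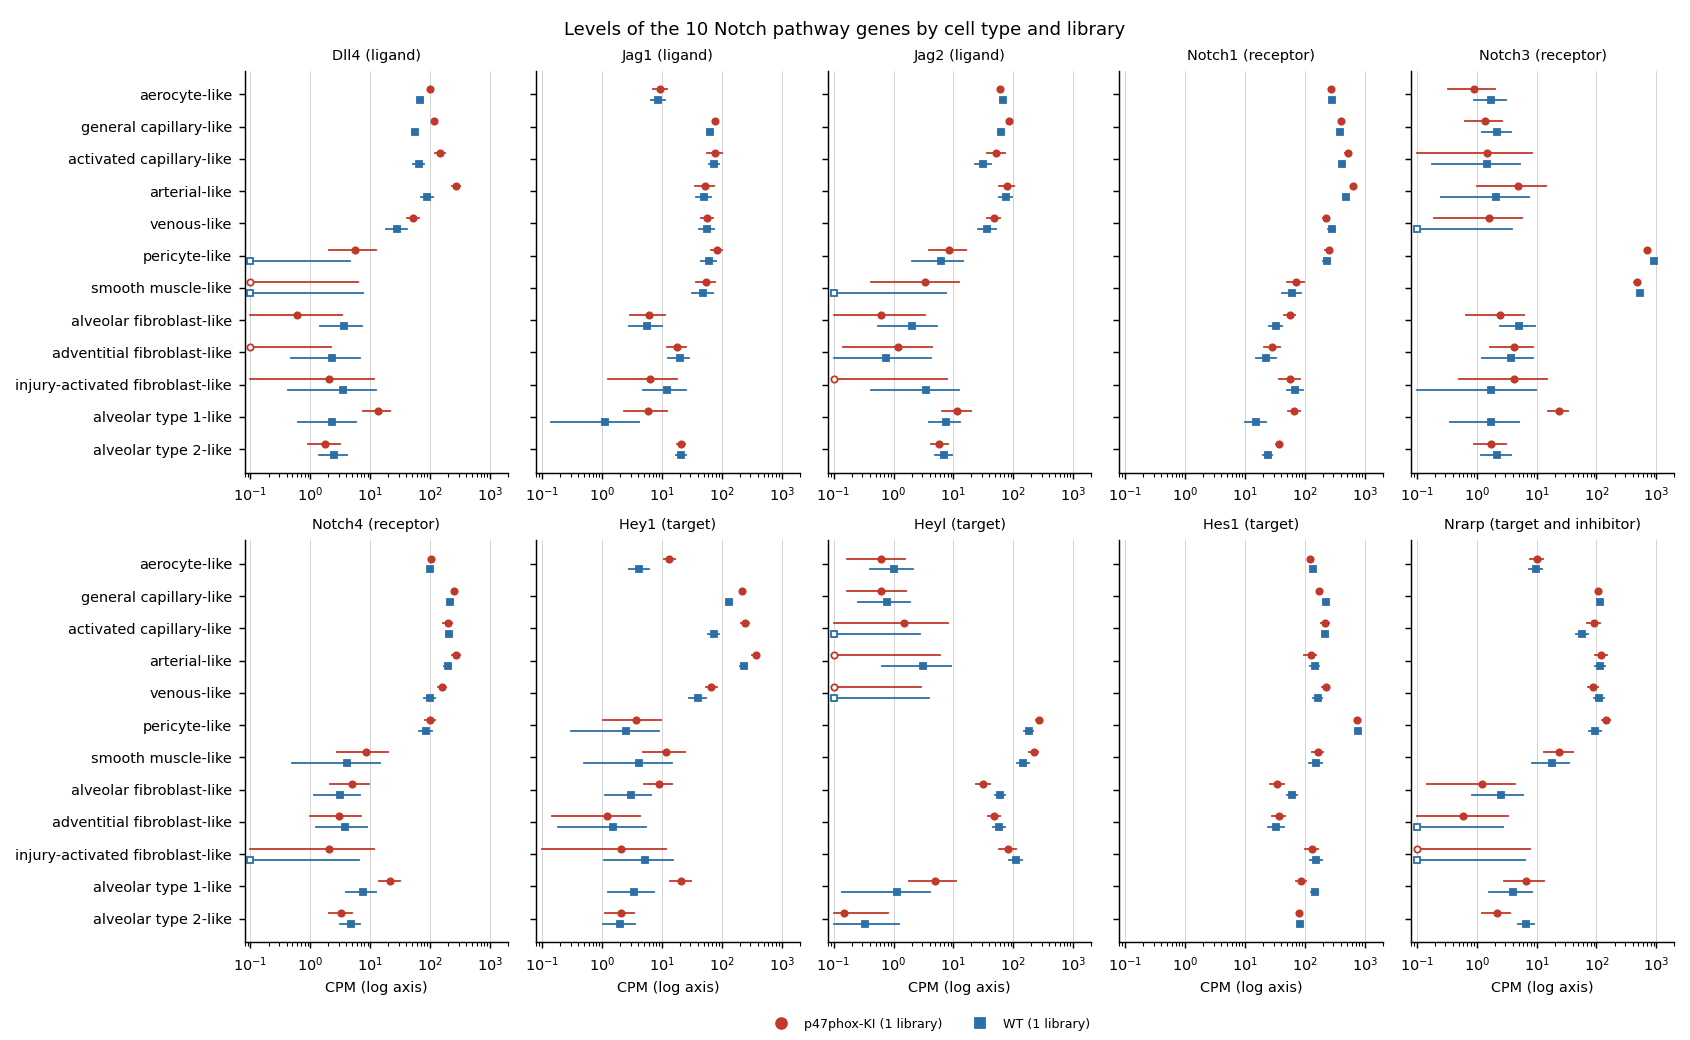
Level of each of the 10 genes (panels) in 12 cell types (rows), in CPM on a log axis; red circles are the p47phox-KI library, blue squares the WT library, bars are exact Poisson 95% counting intervals, and open symbols at 0.1 stand for 0 UMIs. Dll4, Jag2 and Notch4 are high in the endothelial rows, and Notch4 also in the pericyte-like row. Hey1 is high in the endothelial rows other than aerocyte-like cells. Notch3 is high in the mural rows, and Heyl is highest there and next in the fibroblast rows. Hes1 peaks in pericyte-like cells at 742 CPM in p47phox-KI and 757 CPM in WT.

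In pericyte-like cells the targets Heyl and Nrarp had ratios above 0.5, while the ratio of the receptor Notch3 was below 0 without reaching -0.5. Heyl (chromosome 4, 123233556 to 123249875, plus strand) is a Hey family member known from mural cells and a known target of Notch3. Mural-like cells held 59.9% of its UMIs in p47phox-KI and 38.7% in WT, and fibroblast-like cells held 24.9% and 46.1%. In pericyte-like cells Heyl held 266 CPM in p47phox-KI (284 UMIs) and 179 CPM in WT (144 UMIs). The ratio was 0.57 [0.28, 0.87], which was 0.49 when cells were weighted equally. Smooth muscle-like cells held 218 CPM of Heyl in p47phox-KI and 145 CPM in WT, a ratio of 0.59 [0.16, 1.03], which was 0.46 with doublets kept. Nrarp in pericyte-like cells held 146 CPM in p47phox-KI and 94.6 CPM in WT, a ratio of 0.63 [0.22, 1.04], which was 0.48 with a stricter cell filter. In smooth muscle-like cells Nrarp held 14 UMIs in p47phox-KI and 9 in WT, a ratio of 0.38 [-0.93, 1.77]. The pericyte-like values of Heyl and Nrarp lie on the other side of 0 from that of Notch3. Hes1 summed over pericyte-like cells was near level, with 742 CPM in p47phox-KI and 757 CPM in WT, a ratio of -0.03 [-0.18, 0.13]. Its clusters went in different directions. In the order used for Notch3 they held 320, 1355, 512 and 169 CPM in p47phox-KI and 495, 1401, 233 and 377 CPM in WT.

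A Heyl UMI was found in 47.4% [42.2, 52.5] of p47phox-KI and 29.3% [24.6, 34.3] of WT pericyte-like cells. Among those deep enough to thin to 2000 UMIs the shares were 40.7% [34.9, 46.8] and 29.8% [23.6, 36.5]. The shallower cells left out were a larger part of the WT than of the p47phox-KI pericyte-like cells. The unthinned intervals did not overlap and the thinned ones did. In aerocyte-like cells 0.223% of p47phox-KI and 0.338% of WT cells had a Heyl UMI. Pericyte-like cells had Heyl and Nrarp above 0.5 and 0 genes below -0.5 of 7 measured, where 14.1% and 10.3% of measured genes were. Smooth muscle-like cells had Heyl above and 0 below of 6, where the shares were 21.1% and 12%. The summed level of the 12 pericyte markers was 21662 CPM in p47phox-KI and 21577 CPM in WT in pericyte-like cells, and that of the 10 endothelial markers was 932 and 1018 CPM.

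**Figure D3:**
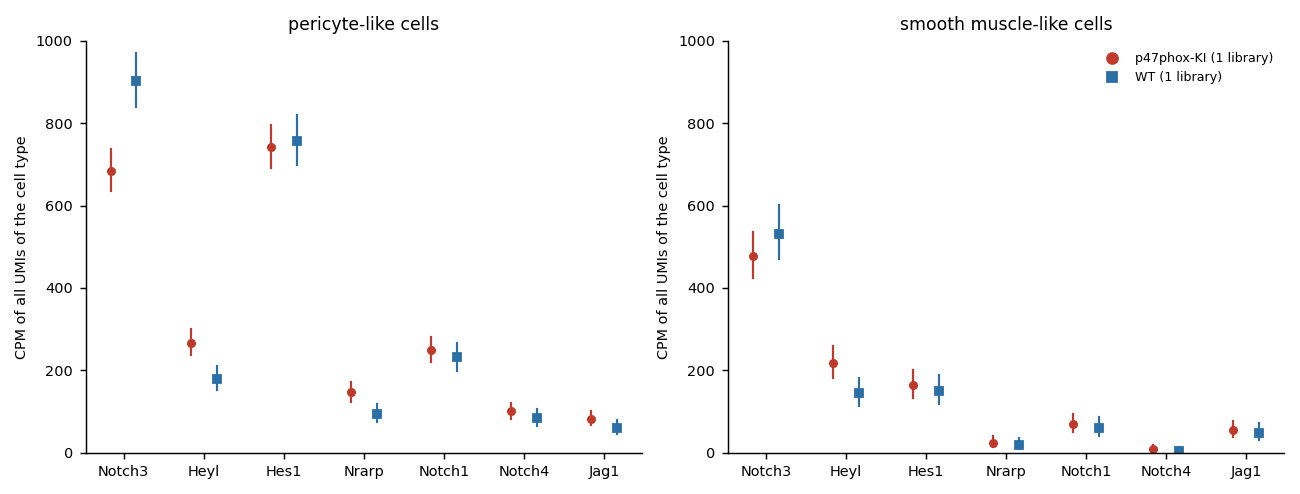
Level of 7 Notch pathway genes in pericyte-like (left) and smooth muscle-like (right) cells, in CPM on a linear axis from 0; red circles are the p47phox-KI library, blue squares the WT library, and bars are exact Poisson 95% counting intervals. In pericyte-like cells Notch3 is lower in p47phox-KI (685 and 903 CPM), Heyl and Nrarp are higher (266 and 179 CPM, 146 and 94.6 CPM), and the Hes1 intervals overlap.

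In alveolar fibroblast-like cells, Heyl was lower in p47phox-KI, with 31.6 CPM (52 UMIs), against 59.6 CPM in WT (116 UMIs), a ratio of -0.91 [-1.41, -0.43], which was -0.41 with each library clustered alone. Hes1 was lower there as well, with 34.1 CPM in p47phox-KI and 61.1 CPM in WT, a ratio of -0.84 [-1.33, -0.37]. Notch1 was higher, with 56.0 CPM in p47phox-KI and 32.4 CPM in WT, a ratio of 0.79 [0.31, 1.28], which became 0.18 with a stricter cell filter. Hey1 had a ratio of 1.57 [0.12, 3.22] from 15 UMIs in p47phox-KI and 6 in WT, which are read as background in these cells. Alveolar fibroblast-like cells thus had Notch1 and, at background, Hey1 above and Heyl and Hes1 below of 5 measured genes, where 15.7% and 10% of measured genes were. In adventitial fibroblast-like cells 0 of 4 genes passed 0.5 in either direction, where 25.4% and 9.91% did, and in injury-activated fibroblast-like cells 0 of 3, where 19.9% and 13.3% did. These counts depended on the clustering and the filter. Of the injury-activated fibroblast-like cells, 89 of 126 in p47phox-KI and 125 of 204 in WT lay in a cluster that scored highest for the alveolar fibroblast list. With each library clustered alone Heyl was at 1.12 and Notch1 at 0.81 in adventitial fibroblast-like cells, and Hes1 was at 1.84 and Heyl at -1.25 in injury-activated ones. Adventitial Notch1 was at -0.83 with a stricter cell filter, and injury-activated Notch1 was at 1.22 at clustering resolution 0.5. Their Heyl levels were 47.8 CPM in p47phox-KI and 57.7 CPM in WT in adventitial fibroblast-like cells, and 81.0 and 111 CPM in injury-activated ones.

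In alveolar type 1-like cells Dll4, Jag2, Notch1, Notch3, Notch4 and Hey1 were above 0.5 and Hes1 below -0.5, of 7 measured, where 21.3% and 11.1% of measured genes were. Notch1 held 65.8 CPM in p47phox-KI (79 UMIs) and 15.4 CPM in WT (27 UMIs), a ratio of 2.09 [1.45, 2.78], which was 0.47 with doublets kept, and Notch3 held 23.3 CPM (28 UMIs) and 1.71 CPM (3 UMIs). In the same cells all 10 endothelial markers were higher in p47phox-KI, with a summed level of 2258 CPM in p47phox-KI and 955 CPM in WT, and 14 of the 16 mural markers were, at 476 and 85.7 CPM. Notch4 in these cells had a ratio of 1.54 [0.53, 2.63], which became -0.12 when cells were weighted equally. The part of other cells' RNA in these ratios was not tested. Hes1 held 86.6 CPM in p47phox-KI and 145 CPM in WT type 1-like cells, a ratio of -0.74 [-1.09, -0.41], the other direction from those markers. In alveolar type 2-like cells Notch1 was above 0.5 and Dll4, Notch4 and Nrarp below -0.5, of 9 measured, where the shares were 12.6% and 6.52%. Notch1 held 36.9 CPM in p47phox-KI and 24.0 CPM in WT, a ratio of 0.62 [0.32, 0.92]. Nrarp held 2.19 CPM (15 UMIs) in p47phox-KI and 6.72 CPM (40 UMIs) in WT, and endothelial markers summed to 283 CPM in p47phox-KI and 574 CPM in WT in these cells, with 0 of 10 higher in p47phox-KI. With doublets kept the Dll4 and Notch4 ratios in these cells turned to 0.76 and 0.15. The part of endothelial RNA in the type 2-like values was not tested.

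**Figure D4:**
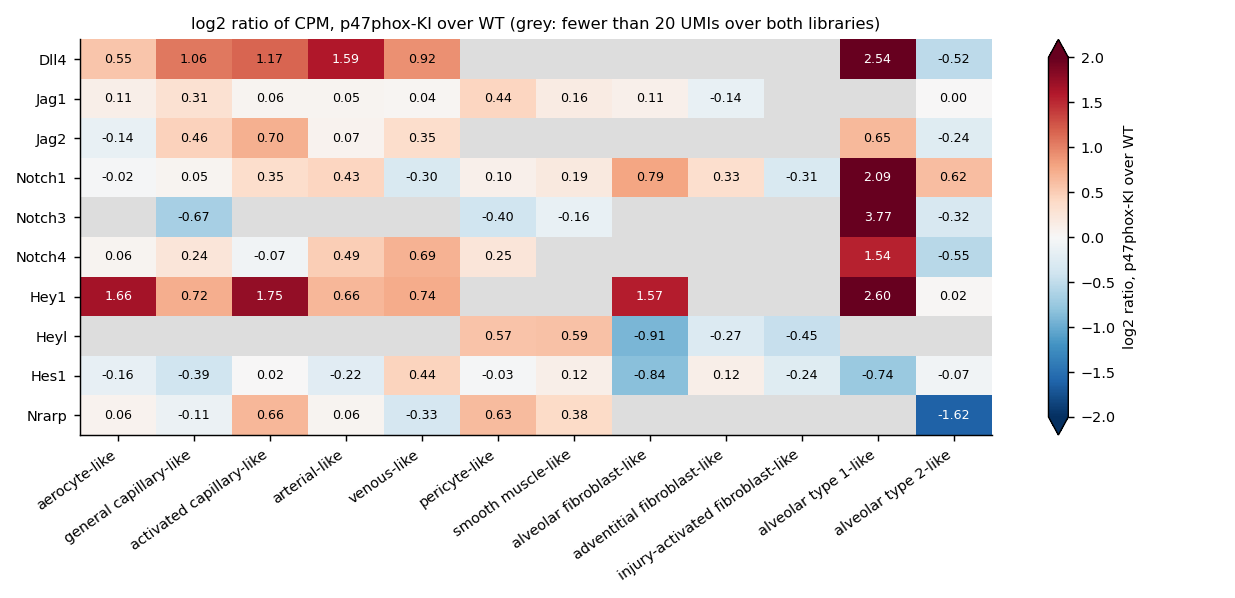
log2 ratio of CPM, p47phox-KI over WT, for the 10 genes (rows) in 12 cell types (columns); the colour runs from blue (lower in p47phox-KI) to red (higher), and grey marks fewer than 20 UMIs over both libraries. Dll4 and Hey1 are above 0.5 in each of the 5 endothelial columns, while Hes1 lies between -0.39 and 0.44 there. Aerocyte-like Hey1 is read as background outside a shallow cluster.

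Other genes of the pathway, 70 in 7 lists, were counted in the pooled classes. In all endothelial-like cells 57 were measured, of which 5 were above 0.5 and 5 below -0.5, where 10.9% and 6.82% of measured genes were. Among the genes above was Sox18, a transcription factor that can act on endothelial Notch ligand genes, with 155 CPM in p47phox-KI and 70.5 CPM in WT, a ratio of 1.13 [1.03, 1.24]. Mfng, a glycosyltransferase that modifies Notch receptors, held 104 CPM in p47phox-KI and 71.7 CPM in WT, a ratio of 0.54 [0.43, 0.65]. Fbxw7, which marks the active receptor for degradation, had a ratio of 0.50 [0.38, 0.63], Dtx2, a Deltex-family ubiquitin ligase, 0.53 [0.24, 0.82], and Hes6, 0.77 [0.56, 1.00]. Below were Aph1c, a subunit of the cleaving gamma-secretase, from 7 UMIs in p47phox-KI and 27 in WT, Maml3, a co-activator of the RBPJ complex, at -0.71 [-0.88, -0.54], Nrip1 at -0.64 [-0.71, -0.57], Myc at -1.22 [-1.57, -0.87] and Neurl1a, a ubiquitin ligase of ligands, at -0.84 from 18 UMIs in p47phox-KI and 34 in WT. Rbpj itself had 42.5 CPM in p47phox-KI and 41.6 CPM in WT, a ratio of 0.03 [-0.13, 0.19].

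Over all mural-like cells Heyl and Nrarp were above 0.5 and 0 of the 10 genes below -0.5, of 7 measured, where 15.2% and 8.59% of measured genes were. Of the other pathway genes 48 were measured in these cells, with 3 above 0.5. Gja4, a vascular connexin, held 457 CPM in p47phox-KI and 265 CPM in WT, a ratio of 0.79 [0.60, 0.98], Dtx4 had a ratio of 0.54 [0.09, 1.00], and Dtx2 was above from 25 UMIs in p47phox-KI and 10 in WT. Over all fibroblast-like cells 50 were measured, with 8 above and 3 below, where 18.3% and 7.36% were. A gene with UMIs in p47phox-KI alone has no finite ratio and is not among the 8, whereas the 18.3% counts such genes.

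Over the 24 profiles given by 12 cell types and 2 libraries, the patterns of the genes were compared with each other. The Pearson correlation of log2(CPM + 1) was 0.911 for Dll4 with Jag2, 0.905 for Notch1 with Notch4, 0.829 for Dll4 with Hey1, 0.715 for Notch3 with Heyl and -0.730 for Dll4 with Heyl. The profiles share 2 libraries and are no independent samples, so no p-value is given. Among 11623 candidate genes, those most like Dll4 were Calcrl, Ccdc85a and Clec14a (0.954, 0.952 and 0.951), those most like Hey1 were Gata3, Myrip and Tmem2, those most like Notch3 were Tusc5, Vsnl1 and Vtn, and those most like Heyl were Rbm46, Rarres2 and Trabd2b.

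**Figure D5:**
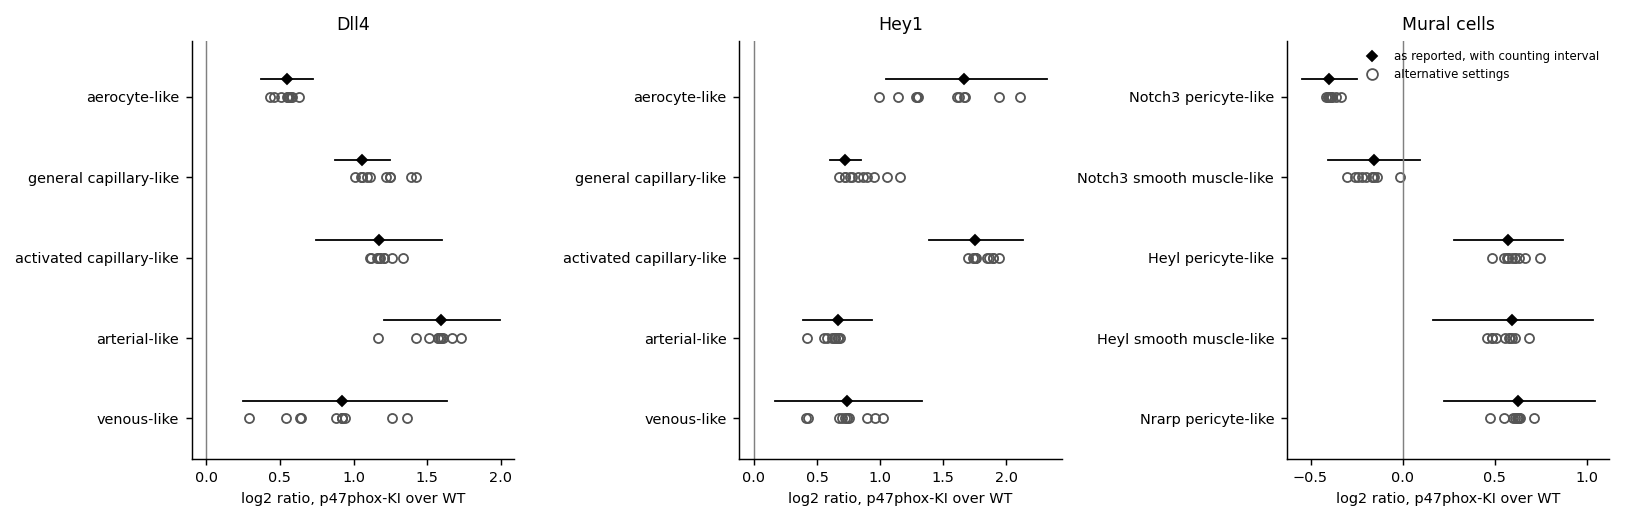
log2 ratio, p47phox-KI over WT, of Dll4 and Hey1 in 5 endothelial cell types and of Notch3, Heyl and Nrarp in mural cells; black diamonds are the values as reported with their 95% counting intervals, and open circles are the same ratios under alternative settings. In these settings the Dll4 and Hey1 ratios lie to the right of 0 in every endothelial type, with the lowest values at 0.29 for Dll4 and 0.41 for Hey1, both in venous-like cells.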

How the data were processed

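Per the labels' protocols, the deposited matrices hold raw UMI counts per gene and barcode from the 10x Chromium V3 kit; mm10, Cell Ranger 2.0, R 3.5.3 and Seurat 2.3.4 are listed per the submitters' processing notes, and the matrix header names software version 3.0.2. Barcodes with at least 200 genes and at most 10% mitochondrial UMIs were kept. Scrublet's automatic threshold marked 0 barcodes, so, after that was seen, the rate expected for the number of barcodes was used, which marked 665 p47phox-KI (7.29%) and 877 WT (8.37%) barcodes. Cells were clustered in 2 steps with scanpy 1.11.5 and leidenalg 0.10.2 (2000 variable genes per library, 30 components, 15 neighbours, resolution 1), leaving out the 10 genes and the other pathway genes. Clusters were named from marker lists, which held none of the 10 genes. Of the other pathway genes, Gja5, Gja4 and Sox17 were also arterial markers and Kdr was an aerocyte marker. The scoring rule and the scaling within each library were chosen after the clusters were seen. Activated capillary-like cells scored highest for the general capillary list and were named from Tmem252 and Inhbb among their top 10 genes. A cluster of 89 p47phox-KI and 125 WT fibroblasts scored highest for the alveolar fibroblast list and was named injury-activated from Il6 among its top 10 genes. UMIs were summed per type and library, with exact Poisson intervals for levels, exact conditional binomial intervals for ratios (scipy 1.17.1) and exact Clopper-Pearson intervals for shares, tested on simulated data. The study's genes were named in every type with at least 50 cells in each library. In all endothelial-like and all mural-like cells, other pathway genes were named past a log2 ratio of 0.5 with at least 50 UMIs. Those with fewer were named only where a count was to be completed. In all fibroblast-like cells the other pathway genes were counted and not named. The 3 genes most alike in pattern were taken among genes with at least 200 UMIs. The genes and lists were chosen with earlier results of these data known, and the immediate-early and heat-shock list was added after the data were seen. Alternatives changed doublet handling, the cell filter, resolution, joint clustering, the clustered genes, scaling, weighting, the count minimum and the size threshold; leaving out clusters of low depth was chosen after seeing the data. The values of 1 other pathway gene are not reported here.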

Additional observations from a re-analysis of the deposited data

Results flagged for a closer look

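Heyl differed in opposite directions between cell types. Its log2 ratio of p47phox-KI over WT was 0.57 in pericyte-like cells and -0.91 in alveolar fibroblast-like cells, and neither counting interval includes 0. With 1 library in each group the difference between these ratios was not tested.

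Nrarp had a ratio of 0.63 in pericyte-like cells and -1.62 in alveolar type 2-like cells. The alveolar type 2-like value rests on 15 UMIs in p47phox-KI and 40 in WT, endothelial markers in the same cells had a summed ratio of -1.02, and with doublets kept the value was -0.32. This difference was not tested either.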

How the results depend on the processing

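Of 869 recomputed ratios, 67 changed sign, of which 62 had a reported ratio within 0.5 of 0 and 7 lay beyond 0.5 on the new side. Among the 331 recomputed from a reported ratio beyond 0.5, the 5 that changed sign were Notch4 in alveolar type 1-like cells (-0.12 as a mean of per-cell CPM), Dll4 in alveolar type 2-like cells (0.76 with doublets kept, 0.10 with each library clustered alone) and Notch4 in alveolar type 2-like cells (0.15 and 0.37 in the same settings). The count of ratios above 0.5, 25 as reported, was 14 with a stricter cell filter, under which 64 ratios could be compared, 39 with no minimum count and 11 at a log2 ratio of 1. The count below -0.5, 7 as reported, was 4 with doublets kept, 19 with no minimum count and 1 at a log2 ratio of 1. The count minimum and the size threshold change these counts by their own construction, and for the others the cause was not tested. The shares of all measured genes under these settings are not given here. Whether the counts differ from those shares therefore cannot be told. Across the settings run, the Dll4 and Hey1 ratios stayed above 0 in the 5 endothelial types. Adventitial fibroblast-like cells were the type in which the median ratio of all measured genes exceeded 0.1, at 0.15. No paired analysis was possible because each group is 1 library. Low UMI numbers limit the ratios of genes near the minimum of 20 UMIs.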

Other observations

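Hes1 was also found in airway secretory-like cells, a type with too few cells for a ratio. Their 45 p47phox-KI cells held 308 CPM (220 UMIs) and their 63 WT cells held 221 CPM (230 UMIs), with counting intervals of 269 to 351 CPM and 194 to 252 CPM.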
